A study of Mus musculus with 2 samples.

Results

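The 9 genes described here encode parts of antibodies or help plasma cells to assemble and secrete them: the heavy-chain constant genes Ighm, Ighd, Igha, Ighg2b and Ighg2c, the kappa light-chain constant gene Igkc, and the secretory genes Jchain, Mzb1 and Derl3. They were chosen by symbol from the 31253 genes of the deposited count tables, and all 9 were found. Their UMIs (unique molecular identifiers, 1 for each captured mRNA molecule) were read in single leukocytes of mouse intrahepatic cholangiocarcinoma (iCCA), a cancer of the bile ducts within the liver. C57BL/6 mice of both groups carried tumours started by Myr-AKT and YAPS127A, activated forms of 2 oncogenes whose transposon vectors reach hepatocytes by hydrodynamic injection. From day 7 on, mice of the NAV group were given NAV2729, an inhibitor of ARF small GTPases, at 30 mg/kg every other day over 7 days, and mice of the MOCK group a mock treatment. CD45+ cells, the leukocytes, were sorted and loaded on the BD Rhapsody single-cell platform, and the tumours of a group were pooled, so that each group is 1 library. The number of tumours per pool is uncertain, because 6 are given in one place and 3 in another. Age and sex of the mice are not given in the sources used here.

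B cells build each antibody from paired heavy and light chains. A naive B cell makes IgM and IgD from a long shared transcript that is processed to carry either the Ighm or the Ighd constant exons, and class switching later joins the same variable region to Igha (IgA) or to a gamma gene such as Ighg2b or Ighg2c (IgG). B-1 cells, a lineage common in body cavities, are known for high surface IgM and low IgD. When a B cell becomes a plasmablast or plasma cell, it fills its cytoplasm with endoplasmic reticulum and devotes much of its mRNA to a single heavy chain, a single light chain and, for IgM and IgA, the joining chain Jchain, which links antibodies into polymers. Mzb1 encodes a chaperone of the endoplasmic reticulum of B cells and plasma cells, and Derl3 a protein of the machinery that exports misfolded proteins from that compartment.

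By the GENCODE vM21 annotation of GRCm38 (mm10), the heavy-chain constant genes lay on the minus strand of chromosome 12, in the order Ighm (chr12:113418558-113422730), Ighd (chr12:113406604-113416324), Ighg2b (chr12:113302965-113307933), Ighg2c (chr12:113285325-113288932) and Igha (chr12:113254830-113260236). Igkc lay at chr6:70726435-70726966 on the plus strand, Jchain at chr5:88519809-88527891 on the minus strand and Derl3 at chr10:75893413-75895941 on the plus strand. Ighg2b and Ighg2c are close copies, which bears on how their UMIs can be read. The first 100 coding bases of their first constant exons, on the minus strand at chr12:113307834-113307933 and chr12:113288833-113288932, were identical at 91 of 100 positions, and the capitals mark the positions that differ.
Ighg2b: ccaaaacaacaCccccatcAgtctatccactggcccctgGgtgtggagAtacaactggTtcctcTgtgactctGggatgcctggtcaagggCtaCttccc
Ighg2c: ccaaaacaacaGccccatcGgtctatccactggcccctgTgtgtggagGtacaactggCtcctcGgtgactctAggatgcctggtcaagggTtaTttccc
Over the whole transcripts, 56 of the 1065 stretches of 50 bases in Ighg2b (5.26%) also occurred in Ighg2c, so a small number of UMIs of one could have been assigned to the other.

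Promoters of 2 of the 9 members, Jchain and Derl3, were in the RefSeq promoter table used (GRCm38.p6). That of Derl3 is shown because it held a match to a stress motif of the endoplasmic reticulum. The 250 bases upstream of the Derl3 start, at chr10:75893148-75893397 on the plus strand, are given here with the match to the ER stress response element in capitals. That motif reads CCAAT, then 9 bases of any kind, then CCACG, and was matched on the minus strand.
Derl3: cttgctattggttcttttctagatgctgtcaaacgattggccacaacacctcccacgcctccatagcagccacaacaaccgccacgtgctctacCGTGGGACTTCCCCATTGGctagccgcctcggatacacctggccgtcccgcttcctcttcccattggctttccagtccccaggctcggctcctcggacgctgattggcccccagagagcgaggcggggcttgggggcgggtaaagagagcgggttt
The match lay from -156 to -138 relative to the start, and 37 of 32851 promoters of this length (0.113%) held one on either strand. An E-box, CACGTG, lay from -168 to -163 without overlap, a motif that 6.02% of the promoters held. The letters TGACGTGG (the core of the unfolded protein response element) and ATTTGCAT (the octamer) did not occur in this window, and none of the 4 motifs occurred in the 250 bases upstream of Jchain.

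The deposited tables held 45976676 UMIs over 10863 barcodes for MOCK and 31454031 over 10465 for NAV, and 10326 and 10048 cells were analysed after filtering and removal of likely doublets (median 3772 and 2068.5 UMIs per cell). Cells were clustered without any immunoglobulin gene or member, so that the members did not define the classes. B-like cells numbered 1021 of the MOCK cells (9.89%, 95% interval 9.32 to 10.5) and 1170 of the NAV cells (11.6%, 11.0 to 12.3), at medians of 1271 and 1365.5 UMIs. All 14 B-cell markers used for the name were over 2-fold above the other cells in them. With 1 library per group no difference had a replicate check and none was tested, every interval is a 95% interval of counting error alone, and a log2 ratio compares NAV with MOCK (positive where NAV was higher). In pooled samples fewer cells of a type and less RNA per cell cannot be told apart in a summed level, and 5 barcodes occurred in both libraries, none of them among the barcodes rich in immunoglobulin described next.

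A few barcodes carried most of the Igha and Jchain UMIs of both libraries, and most of the Ighg2b UMIs of NAV. In 16 of the barcodes kept after filtering, 4 in MOCK and 12 in NAV, at least 10% of all UMIs came from immunoglobulin genes or Jchain. The lowest of the 16 had 11.5% and the next barcode below the limit, a NAV monocyte and macrophage-like cell, had 5.87%. The median was 0.898% in the other B-like cells and 0 in the rest. As a share of kept barcodes the 16 came to 0.0371% (0.0101 to 0.0951) in MOCK and 0.115% (0.0594 to 0.201) in NAV, a log2 ratio of 1.63 with an interval of -0.09 to 3.72. Among the cells left after doublet removal there were 2 in MOCK and 11 in NAV, with a log2 ratio of 2.50 (0.30 to 5.71). The first interval includes no difference and the second does not, since 2 of the 4 MOCK barcodes and 1 of the 12 NAV barcodes were among those removed as doublets. The doublet scores of the 2 removed MOCK barcodes, 0.28 and 0.26, lay close to the limit of 0.25, as did that of MOCK 1, which was kept at 0.243. Whether any of these barcodes was a doublet was not tested. Shares of cells here are shares of a CD45+ sort.

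Igha, the constant gene of IgA, had 2223 UMIs in the kept MOCK barcodes and 2350 in the kept NAV barcodes, and 96.6% and 95.02% of them sat in the immunoglobulin-rich barcodes. Ighg2b, a constant gene of IgG, had 15 UMIs in MOCK and 4389 in NAV, of which 0 and 97.7% sat there. For Jchain the totals were 873 and 2652 UMIs, with 98.97% and 97.4% in the same barcodes. Ighd was the reverse, with 0 of 1830 and 0 of 2466 UMIs in them. Ighm fell between, with 0 of 6967 MOCK UMIs and 18.3% of 10720 NAV UMIs in these barcodes, and so did Igkc, with 34.4% of 10322 and 55.5% of 24441. Mzb1 was split in much the same way in both libraries (8 of 20 and 27 of 69 UMIs), whereas for Derl3 it was 6 of 50 UMIs in MOCK and 61 of 96 in NAV. Ighg2c had 0 UMIs in MOCK, which allows up to 3, and 10 in NAV, of which 9 were in a single barcode that also held 1512 Ighg2b UMIs. Given the similarity of both genes shown above, these 10 cannot be taken as IgG2c transcripts.

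**Figure D1:**
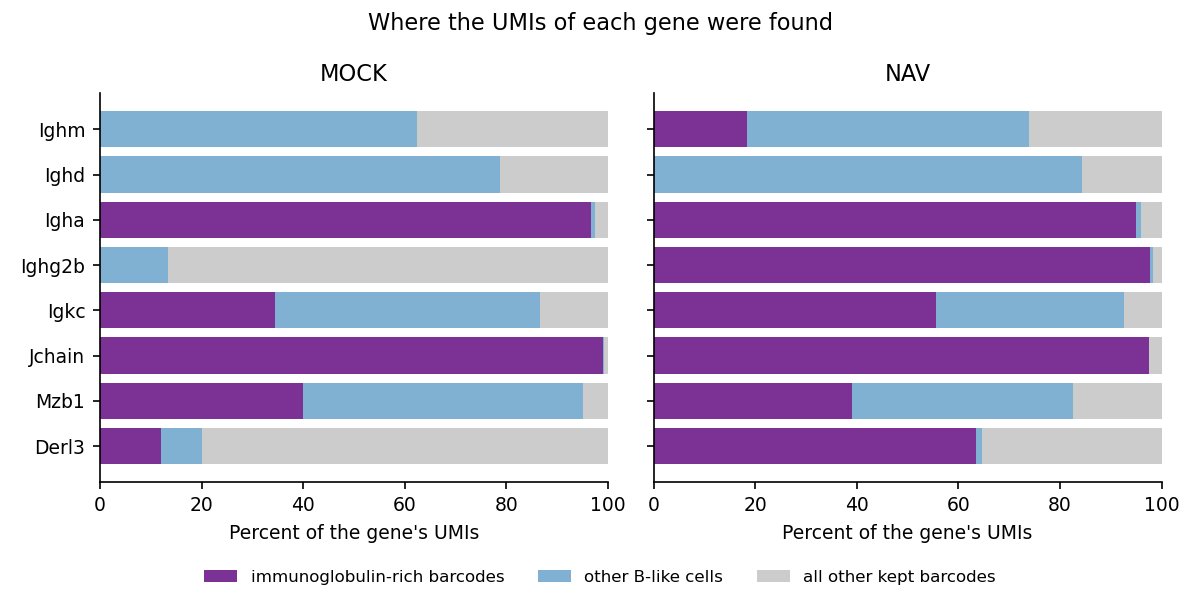
Share of each gene's UMIs (x axis, percent of the gene's UMIs in kept barcodes of a library) found in the 16 immunoglobulin-rich barcodes, in the other B-like cells and in all other kept barcodes, for MOCK (left) and NAV (right). Igha and Jchain sat almost wholly in the immunoglobulin-rich barcodes of both libraries, Ighg2b only in those of NAV, and Ighd in none.

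Every immunoglobulin-rich barcode was dominated by 1 heavy-chain gene and 1 light-chain gene. Igha was that heavy-chain gene in 8 barcodes (4 in MOCK and 4 in NAV), Ighg2b in 4 and Ighm in 4, and all of the last 8 were in NAV. The dominant gene held at least 98.5% of a barcode's heavy-chain constant UMIs, and the dominant light-chain gene at least 91.7% of its light-chain constant UMIs. The light chain was Igkc in 13 barcodes and Iglc1, a lambda constant gene, in 3 (MOCK 4, NAV 7 and NAV 9; barcodes are numbered within a library by falling immunoglobulin share). Ighd, Ighg1, Ighg3 and Ighe had no UMI in any of the 16. Ighg1 and Ighe had no UMI in any other kept barcode either, and Ighg3 had 4 in MOCK and 15 in NAV. The only heavy-chain UMIs outside the dominant gene were 11 of Ighg2b beside 708 of Igha in NAV 4 and 9 of Ighg2c beside 1512 of Ighg2b in NAV 6.

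In the 8 Igha barcodes the Igha UMIs were 937, 440, 306 and 465 in MOCK 1 to 4, and 601, 708, 681 and 243 in NAV 1, 4, 5 and 8. Both libraries covered much the same range, and their Igha barcodes overlapped in immunoglobulin share too, from 11.5% to 65.1% over all 8. The 4 Ighg2b barcodes held 1512, 1937, 133 and 697 Ighg2b UMIs (NAV 6, 7, 9 and 12), and the 4 Ighm barcodes 405, 827, 494 and 238 Ighm UMIs (NAV 2, 3, 10 and 11). In the 13 kappa barcodes Igkc ran from 312 UMIs in NAV 11 to 2189 in MOCK 1. In the 3 lambda barcodes Igkc was at 17, 1 and 0 UMIs, and Iglc1 at 229, 576 and 22.

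Jchain was detected in all 16 barcodes, from 3 UMIs in NAV 9 to 468 in NAV 4. These counts are not scaled to depth, which ran from 548 UMIs in NAV 9 to 9490 in NAV 12, with a median of 5379.5. The Jchain median was 273.5 UMIs in the Igha barcodes, 259.5 in the Ighm barcodes and 50 in the Ighg2b barcodes. The Igha and Ighm ranges (119 to 468 and 63 to 299) overlapped, and the Ighg2b range (3 to 232) reached into both. Mzb1 was found in 13 of the 16 at 1 to 5 UMIs, and Derl3 in 15 of the 16 at up to 15 UMIs, with a median of 2.5. NAV 7, an Ighg2b barcode, had the 15. At such counts neither gene separates the isotypes.

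**Figure D2:**
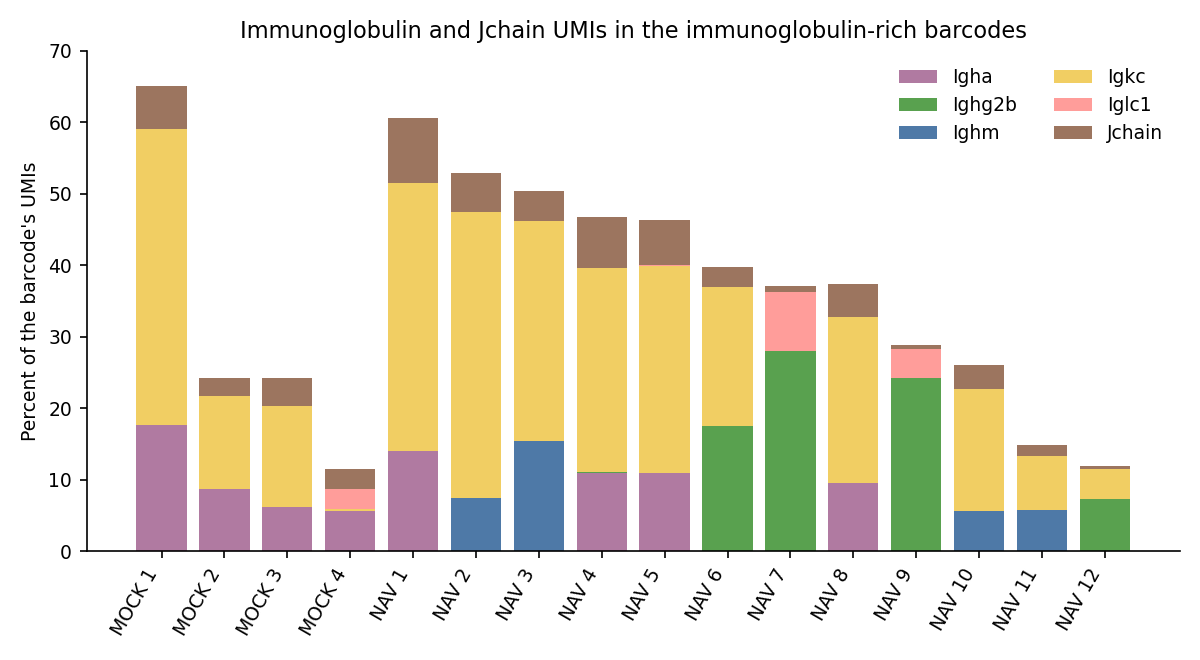
Share of each barcode's UMIs (y axis, percent) that came from Igha, Ighg2b, Ighm, Igkc, Iglc1 and Jchain in the 16 immunoglobulin-rich barcodes, 4 of MOCK and 12 of NAV. Each bar holds 1 heavy-chain colour: Igha in the 4 MOCK barcodes and in 4 of NAV, Ighm in 4 and Ighg2b in 4 of NAV.

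The other genes of these barcodes were those of antibody-secreting cells. Of the 31 genes of the list for antibody secretion and the endoplasmic reticulum, 31 were higher than in other B-like cells, as a share of UMIs outside immunoglobulin genes, both in the 10 barcodes that clustered with B-like cells and in the other 6. The list took 3.45% to 19.4% of a barcode's UMIs outside immunoglobulin, with the highest share in NAV 9, which had only 548 UMIs. Xbp1, a transcription factor needed for secretion, was present in all 16 at 1 to 25 UMIs. Txndc5, a protein disulfide isomerase, was present in 15 at up to 57 UMIs. Tnfrsf17, the BCMA receptor of plasma cells, was found in 7 of the 16, and Sdc1, the plasma cell surface protein CD138, in 11. Pax5, a transcription factor that plasma cells switch off, had 0 UMIs in all 16, and Ms4a1 (CD20) had 2 UMIs, both in NAV 11. Ccr10, a chemokine receptor of IgA-secreting cells, had UMIs in 6 of the 8 Igha barcodes and in 0 of the 8 Ighm and Ighg2b barcodes. MOCK 4 and NAV 6 also carried the proliferation genes Mki67 (7 and 7 UMIs) and Top2a (9 and 6 UMIs).

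Of the 13 immunoglobulin-rich barcodes left after doublet removal, 10 clustered with B-like cells, 2 with cycling cells (MOCK 4 and NAV 6) and 1 with plasmacytoid dendritic cell (pDC)-like cells (NAV 8). When the B-like cells were clustered again without immunoglobulin genes, those 10 and no other cell formed a sub-cluster of 1 MOCK and 9 NAV cells. It was named by markers of antibody-secreting cells. That all 18 of them were higher in it than in other B-like cells is therefore no separate check of the name. Of the 14 B-cell markers, 0 were higher in it. Its leading genes included Tent5c, Xbp1, Creld2, Txndc5, Fkbp11 and Tnfrsf17, and it is called antibody-secreting-like here. The sub-cluster came to 0.0979% of B-like cells in MOCK (0.00248 to 0.544) and 0.769% in NAV (0.352 to 1.46), a log2 ratio of 2.97 (0.12 to 8.43).

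Much of the difference between the libraries in B-like cells lay in those 10 cells. Summed over all B-like cells and scaled to a common total (CPM, each gene's count as a share of the class's UMIs), Ighm was at 3152 CPM in MOCK and 4531 in NAV (log2 ratio 0.52, 0.47 to 0.58). Without the antibody-secreting-like cells it was at 3165 and 3504 (0.15, 0.09 to 0.20). Igkc was at 5504 and 11407 CPM in all B-like cells (1.05, 1.01 to 1.09) and at 3931 and 5323 without those cells (0.44, 0.39 to 0.49). Ighd, of which those cells had no UMI, was at 1045 and 1188 CPM (0.19, 0.09 to 0.28) and stayed there without them (0.22, 0.12 to 0.32). All 3 were higher in NAV in both readings, and for Ighm and Igkc the difference was smaller without those cells.

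The switched and secretory members depended on the same cells more strongly. Igha had 953 MOCK and 2013 NAV UMIs in all B-like cells (0.74, 0.62 to 0.85), but 16 and 23 without the antibody-secreting-like cells (0.22, -0.77 to 1.23). With all 16 immunoglobulin-rich barcodes counted, those removed as doublets and those of other classes included, it had 2164 and 2256 UMIs and the ratio changed sign (-0.28), so no direction can be given for Igha. Jchain was then at 866 and 2587 UMIs (1.24). Ighg2b had 2 and 2108 UMIs (9.70, 7.84 to 12.7) and 2 and 27 without them (3.45, 1.45 to 6.56). Jchain had 319 and 2197 UMIs (2.44, 2.27 to 2.61) and 2 and 3 without them (0.28, -2.85 to 3.86). Mzb1 had 12 and 50 UMIs (1.72, 0.79 to 2.76) and 11 and 30 without them (1.14, 0.10 to 2.28). Derl3 had 5 and 43 UMIs (2.76, 1.43 to 4.45) and 4 and 1 without them, where the ratio was -2.31 (-7.93 to 1.03). Single cells carried most of some sums over all B-like cells. MOCK 1 held 937 of the 953 MOCK Igha UMIs and 317 of the 319 MOCK Jchain UMIs. NAV 7 held 1937 of the 2108 NAV Ighg2b UMIs. The intervals treat UMIs as independent counts, so they do not cover how few cells carried them. Ighg2b and Mzb1 were therefore the members with a higher count in NAV in both readings whose ratio was at least 2-fold, both at low counts. Without the antibody-secreting-like cells, Ighg2b was found in only 1 of 1020 MOCK cells and 7 of 1161 NAV cells. The ratios of Igha and Jchain without the antibody-secreting-like cells had intervals on both sides of 0.

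Past a log2 ratio of 1, with at least 20 UMIs over both libraries, 5 of the 8 members that had enough UMIs were higher in NAV in all B-like cells, where 0.986% of the 8723 genes read were higher and 5.15% lower. No member was past the limit in the other direction. Without the antibody-secreting-like cells 2 of 6 members were higher (Ighg2b and Mzb1), beside 0.863% of 8691 genes higher and 5.03% lower. The median log2 ratio of the members was 1.38 and then 0.33, against -0.07 and -0.06 over all genes. The members that drop out between the readings had too few UMIs left or lay under the limit. In all B-like cells Ighg2b, Mzb1 and Derl3 had 2, 12 and 5 MOCK UMIs and passed the minimum of 20 through NAV. Their place among the higher members was thus partly set by that minimum, also for Ighg2b and Mzb1 in the second reading.

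**Figure D3:**
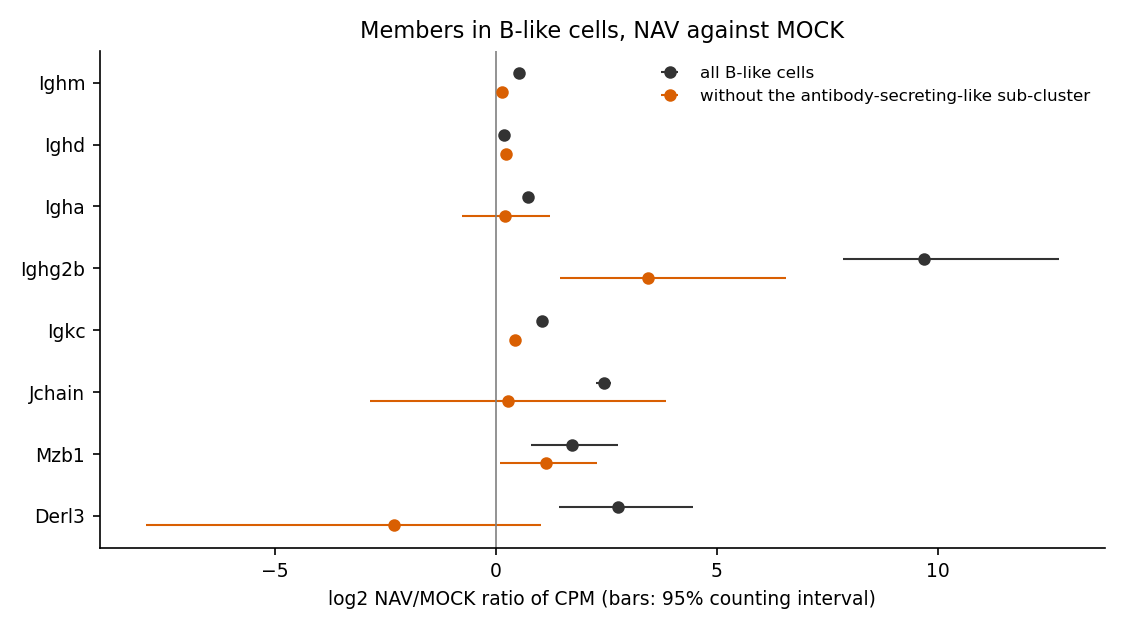
Log2 NAV/MOCK ratio of CPM (x axis) of 8 members in all B-like cells (1021 MOCK and 1170 NAV cells) and without the 10 cells of the antibody-secreting-like sub-cluster, with 95% counting intervals as bars. Ighm, Igkc, Jchain and Ighg2b lay closer to 0 without those cells, and Derl3 went from 2.76 to -2.31 on 4 and 1 UMIs.

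Among the remaining B-like cells, a B-1-like sub-cluster stood out by its Ighm and Ighd. It was found without immunoglobulin genes and named by its B-1 markers. All 11 of those were higher in it than in other B-like cells, which is no separate check of the name. S100a6, Plscr1 and Sox5 were among its leading genes. It made up 69 MOCK cells (6.76% of B-like cells, 5.30 to 8.48) and 117 of 1170 NAV cells (interval 8.34% to 11.9%), a log2 ratio of 0.57 (0.12 to 1.02). Ighm was at 4916 CPM in its MOCK cells and 5353 in its NAV cells, against 2925 and 3128 in the B-like cells outside the named sub-clusters. That is higher by 0.75 (0.64 to 0.86) and 0.77 (0.69 to 0.86) on the log2 scale. Ighd was at 366 and 607 CPM against 1156 and 1376, a log2 difference of -1.66 (-2.06 to -1.29) in MOCK and -1.18 (-1.42 to -0.95) in NAV. Of all Ighm and Ighd UMIs, Ighd made up 6.92% (5.32 to 8.82) in MOCK and 10.2% (8.78 to 11.7) in NAV B-1-like cells, against 28.3% (27.0 to 29.7) and 30.6% (29.4 to 31.8) in the others. Both libraries thus showed the same order, high Ighm with low Ighd in the B-1-like cells. These cells were deeper (medians 2247 and 2222 UMIs) than the other B-like cells (1237.5 and 1316), a difference that CPM and the share of 2 genes allow for.

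Activated-like B cells, 75 in MOCK and 106 in NAV, led by genes such as Egr1, Myc and Irf4, had Ighm at 2948 and 3235 CPM. Their log2 difference from the other B-like cells was 0.01 (-0.16 to 0.18) in MOCK and 0.05 (-0.09 to 0.18) in NAV, so their Ighm was not separated from that of the others. Within the B-1-like cells Ighd was higher in NAV, with 60 and 170 UMIs (log2 0.73, 0.30 to 1.18), and so was Igkc with 498 and 1409 UMIs (0.73, 0.58 to 0.88). Mzb1, known from innate-like B cells and plasma cells, had 1 and 12 UMIs there (2.81, 0.06 to 8.23). Ighg3, the constant gene of IgG3, had 1 and 15 UMIs in B-1-like cells, and 3 and 0 in the B-like cells outside the named sub-clusters.

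Single B-like cells outside the antibody-secreting-like sub-cluster were mostly unswitched. Ighm had a UMI in 952 of 1020 MOCK cells (93.3%, 91.6 to 94.8) and 1084 of 1161 NAV cells (93.4%, 91.8 to 94.7). In neutrophil-like cells, which should lack the gene and had similar median depths (1286 and 1168 UMIs against 1270.5 and 1362), the share was 2.50% and 5.14%. A UMI of Ighd was found in 67.0% (64.0 to 69.8) and 74.8% (72.2 to 77.2) of B-like cells, and in 0.245% and 0.335% of neutrophil-like cells. Cells were also drawn down to 1000 UMIs each, leaving aside 199 shallower cells of MOCK and 188 of NAV, and Ighd was then found in 58.8% (55.4 to 62.2) and 66.1% (63.01 to 69.1). The share with both genes was then 53.2% (49.7 to 56.7) and 59.3% (56.1 to 62.4), and the share with Ighm alone 37.5% (34.2 to 40.9) and 30.4% (27.5 to 33.4). A second random draw of the same cells gave 59.7% (56.2 to 63.1) and 64.4% (61.3 to 67.5) for Ighd, with intervals that overlap, so at equal depth the share with Ighd was higher in NAV in both draws but separated from MOCK in only 1 of them. The shares with Ighm, 90.7% in MOCK and 89.7% in NAV in the first draw, had intervals that overlapped.

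At least 2 UMIs of a switched gene (Igha, Ighg1, Ighg2b, Ighg2c or Ighg3) were found in 4 MOCK cells (0.392%, 0.107 to 1.001) and 7 NAV cells (0.603%, 0.243 to 1.24) of the same population. Both intervals overlap, so no difference was detectable at this depth. The 11 cells held Igha in 2 MOCK and 2 NAV cells, Ighg2b in 1 MOCK and 4 NAV cells, and Ighg3 in 1 MOCK and 2 NAV cells, counting a NAV cell with 3 Igha and 7 Ighg3 UMIs for both. The highest count was 16 Igha UMIs in a NAV B-1-like cell that had no Ighm or Ighd. Neither Ighm nor Ighd was found in 2 of the MOCK cells and 4 of the NAV cells.

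The kappa and lambda light chains kept nearly the same balance in both libraries. Lambda constant genes made up 7.59% (6.92 to 8.30) of light-chain constant UMIs in MOCK and 7.82% (7.30 to 8.37) in NAV B-like cells without the antibody-secreting-like cells. Iglc1, Iglc2 and Iglc3 were each higher in NAV by 0.96 (0.48 to 1.46), 0.52 (0.26 to 0.78) and 0.29 (0.03 to 0.56) on the log2 scale, beside 0.44 for Igkc. Iglc2 and Iglc3 share 43 of 409 stretches of 50 bases, so their split is uncertain. In all B-like cells Iglc1 was at 53 and 730 UMIs (3.44, 3.04 to 3.87), and 609 of the total came from the antibody-secreting-like cells. The single cell NAV 7 held 576 of them, so this ratio rested largely on 1 cell. MOCK 4, with 229 Iglc1 UMIs, clustered with cycling cells and is not counted here. Within the 16 immunoglobulin-rich barcodes Iglc1 had 238 and 609 UMIs, a log2 ratio of -0.20 (-0.42 to 0.03) as a share of their UMIs.

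Genes that serve antibody production were read in B-like cells from lists. In the list for secretion and the endoplasmic reticulum, 4 of 31 genes were past 2-fold higher in NAV and 0 lower, beside 0.986% of all genes higher, with a median log2 ratio of 0.40 against -0.07 over all genes. The genes ranked first were Fkbp11, a prolyl isomerase of the endoplasmic reticulum, with 0 and 22 UMIs, Txndc5 with 112 and 356 (1.33, 1.01 to 1.64) and Creld2 with 57 and 179 (1.31, 0.87 to 1.76). Xbp1 was at 79 and 234 UMIs (1.22, 0.85 to 1.61). Of these, the 10 antibody-secreting-like cells held 16 Fkbp11, 178 Txndc5, 99 Creld2 and 132 Xbp1 UMIs. Without them 0 of 29 genes of the list were past 2-fold, beside 0.863% of all genes higher, and the median was 0.11. In the list of plasma cell regulators and surface genes, 3 of 17 were higher (Tent5c, Xbp1 and Sdc1), and without those cells 1 of 17, Sdc1 at 8 and 20 UMIs. Fkbp11 and Sdc1 passed the minimum of 20 UMIs through NAV, so their place among the higher genes was partly set by it. The genes of B cell receptor signalling, which relay antigen binding by surface antibody, had 0 of 20 higher and 4 of 20 lower in NAV with and without those cells. The 3 ranked first were Vav1 (138 and 49 UMIs, -1.84, -2.34 to -1.36), Cd37 (565 and 312, -1.20, -1.40 to -0.998) and Cd72 (229 and 132, -1.14, -1.46 to -0.82), where 5.15% of all genes were lower (5.03% without those cells). In the list of class switching and somatic hypermutation 2 of 16 genes were lower, Il4ra (300 and 177, -1.10, -1.38 to -0.83) and Batf (24 and 15), and of the BAFF and APRIL axis 0 of 2 were past 2-fold.

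Outside the B-like cells and the immunoglobulin-rich barcodes, the members were found at low levels in most classes, and the levels differed between classes. Ighm was at 1029 CPM in MOCK and 1036 CPM in NAV in pDC-like cells (149 and 455 UMIs), an equal level in both libraries (0.01, -0.26 to 0.29). In the other classes Ighm was between 11.5 CPM (Kupffer-like cells, MOCK) and 125 CPM (cycling cells, NAV). Ighm was higher in NAV in neutrophil-like cells (53 and 192 UMIs, 1.32, 0.87 to 1.79), cycling cells (117 and 113 UMIs, 1.24, 0.86 to 1.63) and T and NK-like cells (185 and 289 UMIs, 0.55, 0.28 to 0.82). With doublets kept, Ighm in neutrophil-like cells was at 29.0 and 49.1 CPM, against 18.9 and 47.1 without them, so that the difference was smaller. In monocyte and macrophage-like cells Ighm was nearly equal when summed (1050 and 622 UMIs, 0.03, -0.12 to 0.17), but the clusters of this class took different shares of each library and did not go one way. In a cluster led by Vcam1 and Ms4a7 (1661 and 585 cells) Ighm was at 46.7 and 59.9 CPM, and in one led by Olfml3 and Fn1 (1455 and 792 cells) at 53.7 and 75.4. In one led by the interferon-induced genes Ifit3 and Cxcl9 (120 and 84 cells) it was at 118 and 31.6 CPM. Endothelial-like cells, 7 and 13 barcodes, had no UMI of Ighm, Ighd or Igkc.

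Igkc outside B-like cells was higher in NAV in 6 of the 7 classes other than endothelial-like and unnamed ones. It was at 6.81 and 24.2 CPM in monocyte and macrophage-like cells (176 and 363 UMIs, 1.83, 1.56 to 2.09), 14.8 and 69.4 CPM in T and NK-like cells (39 and 195 UMIs, 2.22, 1.72 to 2.76) and 18.2 and 43.2 CPM in neutrophil-like cells (51 and 176 UMIs, 1.25, 0.79 to 1.73). Barcodes with at least 5 Igkc UMIs held a large part of these counts. In monocyte and macrophage-like cells, 7 such barcodes held 67 of 176 UMIs in MOCK and 5 held 161 of 363 in NAV. Of those 161, 111 were in 1 barcode. In T and NK-like cells, 3 held 23 of 39 in MOCK and 12 held 137 of 195 in NAV. The neutrophil-like cells also came from different clusters in each library. Igkc was at 39.1 and 35.1 CPM in the one led by Mmp9 and Cxcr2 (799 and 1551 cells). There 1 MOCK barcode held 32 of the 38 MOCK UMIs, so these levels cannot be read as equal. In all NAV neutrophil-like cells, 4 barcodes with at least 5 Igkc UMIs held 70 of 176. Igkc was at 7.36 and 101 CPM in one cluster led by Retnlg and S100a8 (1074 and 499 cells). Another cluster, led by Cxcl3 and Hcar2, held 130 and 1113 cells, with Igkc at 6.45 and 24.7 CPM. In pDC-like cells it was at 110 and 109 CPM (16 and 48 UMIs, -0.02, -0.86 to 0.90), but without the barcodes that carry at least 3 B-cell markers, it had 3 and 31 UMIs (1.71, 0.03 to 4.06). Ighg2b was listed at 0 UMIs in the MOCK neutrophil-like and T and NK-like cells, against 27 and 17 UMIs in NAV. Those UMIs came from only 11 of 3288 and 2 of 965 NAV cells. With a floor of 3 UMIs put in place of the MOCK count, the log2 ratios of Ighg2b were 2.63 in neutrophil-like and 2.41 in T and NK-like cells. These are not minima, since the lower limits of the counting intervals were 2.23 and 1.95. Jchain was at 2 and 28 UMIs in monocyte and macrophage-like cells (4.59, 2.60 to 7.70), found in 2 and 13 cells. Over all classes but B-like cells, without the immunoglobulin-rich barcodes, Jchain came to 7 and 63 UMIs and Ighg2b to 11 and 70.

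**Figure D4:**
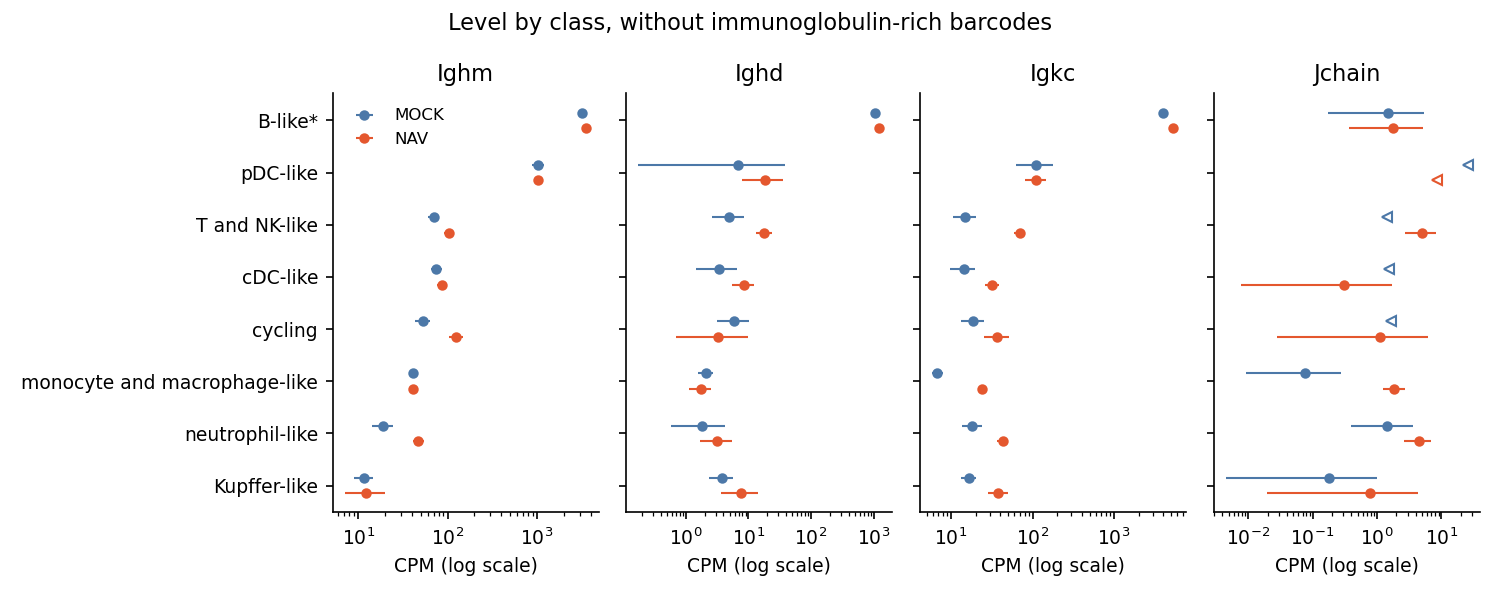
Level in CPM (x axis, log scale, each panel with its own range) of Ighm, Ighd, Igkc and Jchain by class in MOCK and NAV, with 95% Poisson intervals as bars and open arrows for the upper limit where no UMI was found; B-like* leaves out the antibody-secreting-like cells and the other classes leave out immunoglobulin-rich barcodes. Ighm stands at about the same level in pDC-like cells of both libraries (1029 and 1036 CPM), and Igkc is higher in NAV in the 7 other classes shown.

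Counted as in B-like cells, the members past 2-fold higher in NAV were 3 of 4 in T and NK-like cells, where 1.59% of all genes were higher and 7.98% lower, and 2 of 4 in conventional dendritic cell (cDC)-like cells (1.96% and 5.01%). They were 3 of 6 in monocyte and macrophage-like cells (1.6% and 6.68%), 2 of 3 in Kupffer-like cells (1.62% and 7.94%) and 4 of 5 in neutrophil-like cells (13.3% and 4.33%). They were 1 of 2 in cycling cells (2.73% and 8.51%) and 0 of 2 in pDC-like cells (6.33% and 4.83%). No member was past 2-fold lower in any of these 7 classes. Some of the higher members had few MOCK UMIs and passed the minimum of UMIs mostly through NAV. In T and NK-like cells these were Ighd (13 MOCK and 50 NAV UMIs) and Igha (7 and 25). In cDC-like cells it was Ighd (8 and 27), and in monocyte and macrophage-like cells Igha (13 and 28) and Jchain (2 and 28). In neutrophil-like cells they were Ighg2b (0 and 27) and Jchain (4 and 18). Their place among the higher members was thus partly set by that minimum. The immunoglobulin-rich barcodes of NAV held 22848 immunoglobulin UMIs and those of MOCK 5966. This is given beside the counts of higher members, and its part in them was not tested.

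Ighm and Igkc UMIs did not keep 1 ratio across the classes of a library. In B-like cells without the antibody-secreting-like cells there were 0.805 Ighm UMIs per Igkc UMI in MOCK and 0.658 in NAV. In pDC-like cells there were 9.31 and 9.48. In MOCK the ratio was 5.97 in monocyte and macrophage-like cells, 5.29 in cDC-like cells and 4.74 in T and NK-like cells, and in NAV it was 1.71, 2.68 and 1.48 in the same classes. In cycling cells it was 2.85 and 3.42 and in neutrophil-like cells 1.04 and 1.09, not lower in NAV. Kupffer-like cells, at 0.699 and 0.327, had a lower ratio than B-like cells, with an interval that overlapped theirs in MOCK. As a share of both genes' UMIs, Ighm made up 90.3% (84.7 to 94.4) and 90.5% (87.5 to 92.9) in pDC-like cells, against 44.6% (43.6 to 45.6) and 39.7% (38.9 to 40.5) in B-like cells. The intervals of pDC-like, cycling, T and NK-like, cDC-like and monocyte and macrophage-like cells lay above that of B-like cells in both libraries.

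**Figure D5:**
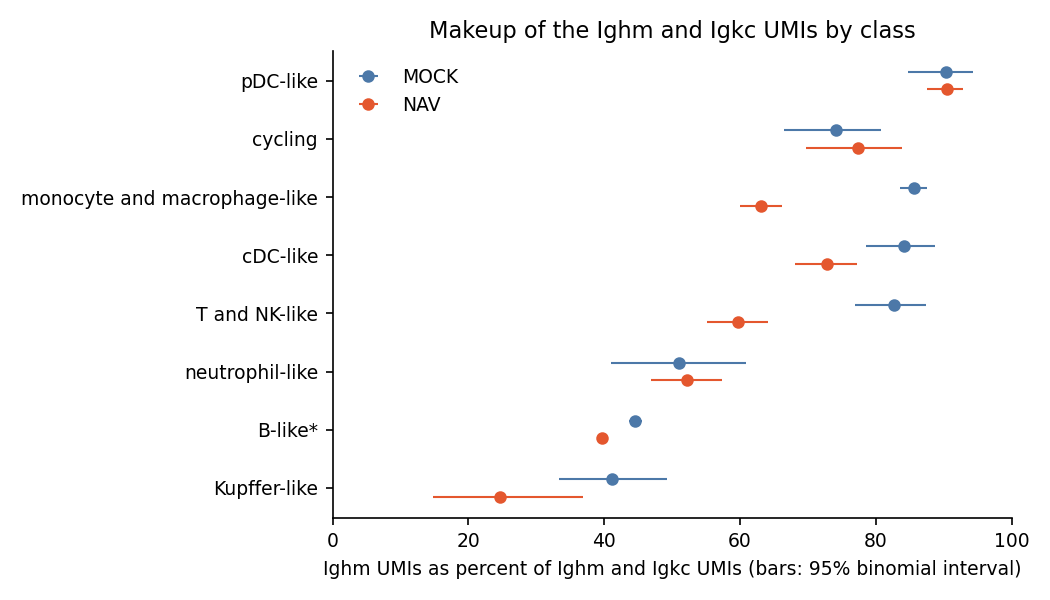
Ighm UMIs as a percent of Ighm and Igkc UMIs (x axis) by class in MOCK and NAV, with exact 95% binomial intervals as bars; B-like* leaves out the antibody-secreting-like cells and the other classes leave out immunoglobulin-rich barcodes. pDC-like cells lie near 90% in both libraries, B-like cells at 44.6% and 39.7%, and T and NK-like, cDC-like and monocyte and macrophage-like cells between them or near the former, lower in NAV than in MOCK.

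The cells behind these UMIs also differed between genes. In pDC-like cells a UMI of Ighm was found in 39 of the 42 cells of MOCK and 113 of the 129 of NAV (median depths 3394.5 and 3478 UMIs), and 62.5% (45.8 to 77.3) and 69.1% (60.1 to 77.1) still had one after thinning to 1000 UMIs, against 1.70% and 4.03% of neutrophil-like cells. Of the pDC-like cells with Ighm, 4 of 39 and 20 of 113 also had a UMI of Igkc, whereas 882 of 952 and 1013 of 1084 B-like cells with Ighm did. Ighd was at 1 and 8 UMIs in pDC-like cells, and Jchain at 0 in both libraries, which allows up to 3. Among the lambda genes Iglc3 stood out there, with 43 and 110 UMIs against 2 and 8 of Iglc2 and 0 and 1 of Iglc1. Iglc3 made up 95.6% (84.9 to 99.5) and 92.4% (86.1 to 96.5) of lambda UMIs in pDC-like cells and 44.0% (39.3 to 48.8) and 38.5% (35.1 to 42.1) in B-like cells.

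Igkc outside B-like cells was concentrated in few barcodes. In MOCK 27 barcodes with at least 5 Igkc UMIs held 249 of 453, and in NAV 34 such barcodes held 512 of 967. At least 3 of the 14 B-cell markers had a UMI in 26 of the 27 and in 23 of the 34, against 0.636% and 0.396% of the barcodes with fewer Igkc UMIs. Their median doublet scores were 0.0658 and 0.0637, against 0.0354 and 0.0334, and their depth was higher (medians 8538 and 4543.5 UMIs against 4202 and 2508.5). When all barcodes with at least 3 B-cell markers were left out, 85 in MOCK and 58 in NAV, Igkc outside B-like cells came to 167 and 711 UMIs, and Ighm to 1573 and 1753. Igkc was then at 4.06 and 25.8 CPM, against 10.8 and 34.7 CPM with them, a log2 ratio of 2.67 (2.42 to 2.92), and Ighm at 38.2 and 63.6 CPM (0.73, 0.64 to 0.83). Ighm made up 97.9% of both genes' UMIs in MOCK pDC-like cells and 93.0% in NAV, and 95.3% and 67.8% in T and NK-like cells. So the higher Igkc in NAV, summed over these classes, was larger without these barcodes, and so was the excess of Ighm over Igkc in pDC-like and T and NK-like cells. The limit of 3 markers took out unlike parts of each library, as the 26 of 27 and 23 of 34 above show. In monocyte and macrophage-like cells it left 79 of 176 Igkc UMIs in MOCK and 349 of 363 in NAV. The part of this unevenness in the larger ratio was not tested.

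The genes whose levels went most like those of the members across 14 profiles (7 classes in 2 libraries) are a description only, since all profiles came from 2 libraries and B-like cells stand apart in most. For Ighd they were Mapk11 (Pearson r 0.997), Fcmr, the receptor for IgM (0.995), and Ms4a1 (0.995). For Ighm they were Ccr6 (0.976) and Tnfrsf13c, the BAFF receptor (0.976). For Jchain they included Eaf2 (0.917), for Igha Pou2af1 (0.918), a coactivator of immunoglobulin genes, and for Derl3 Fkbp11 (0.930) and Mzb1 (0.905). For Mzb1 the first was Sox5 (0.985), for Igkc Gm13919 (0.955) and for Ighg2b Mn1 (0.917). In cycling cells 1512 of 1519 NAV Ighg2b UMIs were in NAV 6, and 465 of 472 MOCK Igha UMIs in MOCK 4. The likeness of these genes may thus follow single barcodes.

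Variable segments were rarely captured. In B-like cells without the antibody-secreting-like cells 79 V-segment UMIs of 44 segments were found in MOCK and 95 of 46 in NAV, and Igkv1-117 led in both with 10 and 10 UMIs. In the immunoglobulin-rich barcodes there were 22 and 131. The same leading kappa segment, Igkv10-96, was found in 3 NAV barcodes that differed in heavy chain: NAV 2 (Ighm, 4 UMIs), NAV 4 (Igha, 8 UMIs) and NAV 6 (Ighg2b, 11 UMIs). Ighv11-2 led in the Ighm barcodes NAV 3 and NAV 10, with 3 and 1 UMIs, and Ighv1-9 in the lambda barcodes MOCK 4 and NAV 7, with 2 and 7.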

How the data were processed

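The deposited values are UMI counts, whole numbers for each gene in each barcode, in 1 table per library. The tools named are STARsolo 2.7.10a, Cell Ranger and fastp, with mm10 as the build, per the submitters' processing notes, which give no role for each. Whether counting used the strand is not given in the sources used here. The lowest barcode of the deposited tables had 500 UMIs.

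A barcode was kept if it had 500 UMIs or more, 200 genes or more and less than 20% of its UMIs from mitochondria (10770 in MOCK, 10441 in NAV). Scrublet's automatic threshold marked 1 and 0 barcodes and had not worked, so 176 and 174 barcodes that scored over 0.25 were removed, and 268 and 219 in clusters whose median score was over 0.1. Cells were clustered together without immunoglobulin and member genes (scanpy 1.11.5, 2000 variable genes, 30 principal components, 15 neighbours, Leiden resolution 1.0). A cluster was named where 3 or more markers of a type were 2-fold above the median cluster and had a UMI in 10% or more of its cells, and where a marker was among its top 10 genes or 60% of the markers passed. That rule, the doublet limits, the immunoglobulin-rich limit of 10% (counting immunoglobulin genes and Jchain) and the limits of 5 Igkc UMIs and 3 B-cell markers were set after the data were seen. These names were rebuilt from RNA, hence "-like".

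UMIs were summed per class and library and divided by the class total. Intervals are exact 95% intervals: Poisson for counts, Clopper-Pearson for shares and conditional on the sum for ratios. They cover counting error only, and a count of 0 was read against a floor of 3. The ratio and its interval were tested on simulated data. The members and the gene lists were chosen with earlier results of these data known. Named besides the members are the other immunoglobulin constant genes, up to 3 genes of a list in each direction ranked by the bound nearest 0, genes of likeness by Pearson correlation of log2(CPM + 10), and leading V segments. Ccr10 and the marker genes singled out in the 16 barcodes were chosen after their values were seen. Some items are not reported here. Sequences are from GENCODE vM21 transcripts and the RefSeq promoter table. Among the alternatives were tighter limits on barcodes (1000 UMIs, 500 genes, 10% mitochondrial), no doublet removal, resolution 2.0, clustering with immunoglobulin genes, other scalings, no minimum of 20 UMIs and, added after seeing the data, B-like cells without the antibody-secreting-like sub-cluster or with all immunoglobulin-rich barcodes, and limits of 5% and 20%.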

Additional observations from a re-analysis of the deposited data

How the results depend on the processing

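With 1 library per group, all results rest on counting error alone, and low counts limit Mzb1, Derl3, Ighg2c and the switched genes outside the antibody-secreting-like cells. Of the alternatives to the log2 ratios in B-like cells and the related counts and shares of immunoglobulin-rich barcodes, 52 stayed within the interval of the reported value or its 1.5-fold range, 28 moved beyond it (Igha changed sign in 1 of them), and 2, both of Derl3, changed sign from a value past 2-fold. Clustering with immunoglobulin and member genes, and CPM without immunoglobulin UMIs, moved none of the 8 ratios.

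Without the antibody-secreting-like sub-cluster the ratios were 0.15 for Ighm, 0.22 for Igha, 3.45 for Ighg2b, 0.44 for Igkc, 0.28 for Jchain and -2.31 for Derl3. At Leiden resolution 2.0 they were 0.20 for Ighm, 0.21 for Igha, 3.44 for Ighg2b, 0.48 for Igkc, 4.73 for Jchain (2 and 66 UMIs) and -0.73 for Derl3 (4 and 3 UMIs). With doublets kept they were 0.82 for Ighm, 0.50 for Ighd, 0.30 for Igha, 1.16 for Igkc and 1.87 for Jchain. With all immunoglobulin-rich barcodes added they were -0.28 for Igha, 0.996 for Igkc and 1.24 for Jchain. With equal weight per cell they were 0.23 for Ighm, 0.67 for Igkc and 1.40 for Derl3, with median-of-ratios scaling 0.60 for Ighm and 1.12 for Igkc, and with the stricter filter 1.10 for Igkc. Without the 10 highest cells of each library they were 0.15 for Ighm, 0.45 for Igkc and 3.42 for Mzb1, and no ratio could be given for Igha, Ighg2b, Jchain and Derl3, which had at most 2 UMIs left. Ighm in MOCK cells outside the B-like class moved with doublets kept from 11.5 to 16.2 CPM in Kupffer-like and from 18.9 to 29.0 in neutrophil-like cells. With no minimum of UMIs 3798 genes were past 2-fold in either direction, against 535. The cause of these shifts was not tested, except that leaving out or adding cells changes the sum by its own construction. No paired analysis was possible because each group has 1 library.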

Other observations

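Iglv1, a lambda variable segment, was found in barcodes whose light chain was kappa. In NAV 7 of the 10 kappa barcodes among the immunoglobulin-rich ones held it, at 50 UMIs beside 11 of Iglc1 and 13559 of Igkc, while the 2 lambda barcodes had 22 Iglv1 UMIs beside 598 of Iglc1. In MOCK the 3 kappa barcodes held 0 Iglv1 UMIs beside 3534 of Igkc, and the single lambda barcode 6 beside 229 of Iglc1. Iglv1 was at 4 UMIs in 1161 other B-like cells of NAV and 1 UMI in 1020 of MOCK. No cause was tested.

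Some sub-clusters of the B-like cells formed without immunoglobulin genes were mostly of 1 library: 1 of them held 240 MOCK and 38 NAV cells, another 117 and 15, and another 70 and 269. A sub-cluster of 39 MOCK and 32 NAV cells was led by the macrophage genes C1qc and Lyz2. These cells were kept in the B-like values above.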
